A study of Mus musculus with 6 samples.

Results

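Oxidative phosphorylation (OXPHOS) genes were followed in total RNA-Seq of mouse colonic crypts. The genes were chosen by symbol: rows named *Ndufa*, *Ndufb*, *Ndufc*, *Ndufs* or *Ndufv* with a number, *Cox4* to *Cox8*, *Uqcr*, *Atp5* and *Sdha* to *Sdhd*, together with the protein genes of mitochondrial DNA. This gave 95 of the 18049 genes in the table, 82 encoded in the nucleus and 13 in the mitochondrion, and all 95 passed the filter on low values. The comparison was between 3 control mice and 3 mice given GSK503, an inhibitor of the histone methyltransferase EZH2, and asked how the drug altered the transcriptome of the colonic epithelium. All 6 were mice of a Lynch syndrome model on C57BL/6J, with a Villin-Cre transgene, active in the intestinal epithelium, and a humanized knock-in of the *TgfβRII* gene with a poly(A) repeat. Both groups were fed a Western-style diet from 8 weeks of age. GSK503 was injected into the tail vein at 200 μg/kg in PBS, described as biweekly, for 9 weeks, and control mice received 20% captisol in PBS. The age at collection is not given in the sources used here. Villin-Cre acts in the epithelium and not in other cells, and the crypts were not sorted, so fewer cells of a type and less RNA per cell cannot be told apart.

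The respiratory chain sits in the inner mitochondrial membrane. Complex I (NADH dehydrogenase) and complex II (succinate dehydrogenase) pass electrons to ubiquinone, complex III passes them on to cytochrome c, and complex IV (cytochrome c oxidase) gives them to oxygen. Complexes I, III and IV pump protons, and complex V (ATP synthase) uses the gradient to make ATP. Complex II is made wholly from nuclear genes, whereas each of the others joins nuclear subunits to subunits made from the mitochondrion's own DNA. In the colon, OXPHOS burns butyrate and other fuels in differentiated epithelial cells.

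Each library held between 1.08e+08 and 1.35e+08 estimated counts, and 3 counts corresponded to a scaled value between 0.0228 and 0.0271, where a scaled value is an estimated count relative to the TMM-scaled library size (CPM). The test was limma on log2(value + 0.1) over 16670 genes with Benjamini-Hochberg adjustment, and every log2FC is GSK503 minus control on that scale. Epithelial markers were abundant, at a summed level between 9876 and 12184, and 7 of 7 were higher in treated mice (median log2FC 0.13, 0 called at an adjusted p of 0.05 by limma and 2 with an unadjusted p under 0.05); *Epcam* itself had a log2FC of 0.04. The 6 goblet cell markers were all higher, with a median log2FC of 0.79, and 3 passed an adjusted p of 0.05 in limma. They summed to 18316, 10122 and 10900 in controls 1, 2 and 3 against 31336, 47059 and 49874 in treated mice 1, 2 and 3. Their part in the OXPHOS values was not tested. Treated mouse 3 stood apart from treated mice 1 and 2 in 9 smooth muscle markers, which summed to 246 against 74.3 and 81.98, with control mice at 104.6, 204 and 153. *Myh11* was at 0.500, 0.199 and 23.9 in the treated mice and at 4.91, 20.0 and 15.5 in the control mice, and *Acta2* showed the same split, at 0.890, 0.653 and 28.5 against 4.84, 20.6 and 8.57. Macrophage markers summed to 66.4 in treated mouse 3 against 11.7 and 7.88. *Xist* was below 1 in the controls against *Uty* near or below 1 in the treated mice, with the opposite group at 825 or more for *Xist* and 42.5 or more for *Uty*, so sex and treatment cannot be told apart. Of the remaining marker lists, with 0 genes called at 0.05 in limma, 2 of 10 pericyte and endothelial, 2 of 7 fibroblast, 0 of 8 macrophage, 0 of 6 B cell, 1 of 6 T cell, 0 of 5 red blood cell and 4 of 7 colonocyte genes were higher in treated mice. The fibroblast markers nonetheless summed to 268, 348 and 395 in treated mice 1, 2 and 3 against 276, 248 and 218 in controls. B cell markers summed to 3.66, 1.95 and 61.4 against 33.4, 75.0 and 22.0.

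Control mouse 3 stood apart in the OXPHOS genes themselves. It held the lowest value of the 6 mice for 73 of the 82 nuclear genes (89.0%) and the highest for 11 of the 13 mitochondrially encoded genes (84.6%). Over all 16670 genes tested, the same mouse was lowest for 19.1% and highest for 22.7%. Its nuclear OXPHOS values lay a median of 0.28 below the mean of the other control mice on the log2 scale, and its mitochondrially encoded values a median of 0.54 above. In this mouse the epithelial marker sum was the lowest of the 6, at 9876, and its other transcripts under 1000 nt lay a median of 0.11 below the other control mice, against 0.02 above for longer ones. The part of these differences in the OXPHOS values was not tested. Medians or counts of the complexes and lists are also given without this mouse. Treated mouse 3 held the lowest nuclear value of the treated mice for 76 of the 82 genes (92.7%, against 42.7% over all genes tested), a median of 0.20 below the other treated mice on the log2 scale, and its mitochondrially encoded values lay a median of 0.16 below them.

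**Figure D1:**
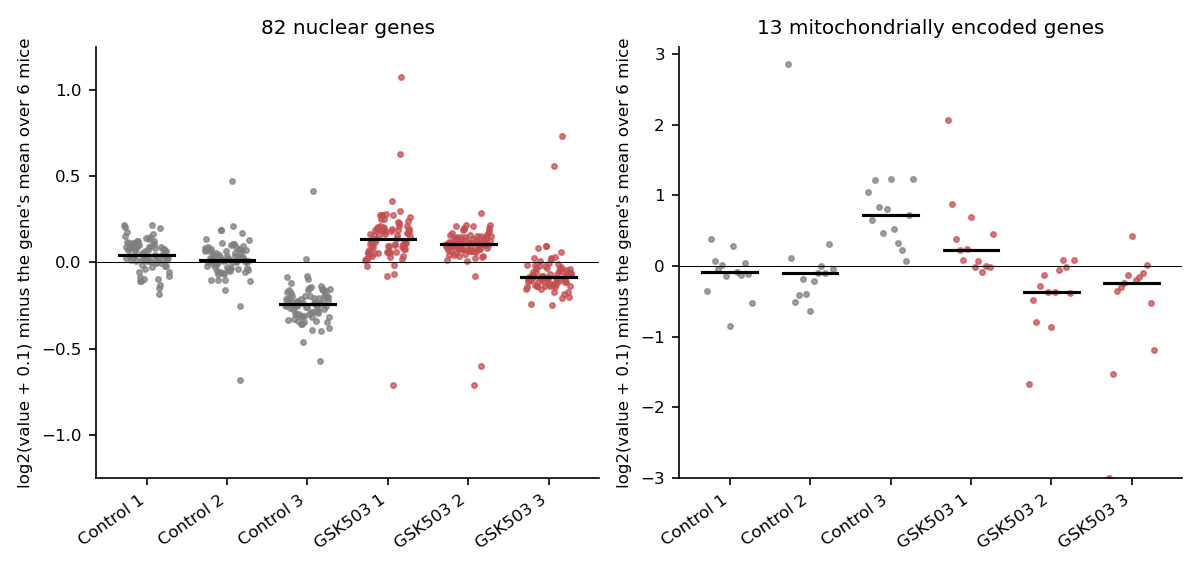
OXPHOS genes in each mouse. Each point is 1 gene, plotted as its log2(value + 0.1) minus that gene's mean over the 6 mice, for 82 nuclear genes (left) and 13 mitochondrially encoded genes (right, 1 point at the lower edge lies beyond the axis); bars are medians. Control mouse 3 has the lowest nuclear median (-0.24) and the highest mitochondrially encoded median (0.72).

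No OXPHOS gene passed an adjusted p of 0.05 or of 0.1 in limma, where 0.642% and 1.97% of all genes tested did. At an unadjusted p under 0.05 there were 6 of the 82 nuclear genes (7.32%) and 1 of the 13 mitochondrially encoded genes (7.69%), against 13.3% of all genes. The nuclear genes were slightly higher in treated mice, with a median log2FC of 0.12 and 74 of 82 above 0. The mitochondrially encoded genes were lower, with a median of -0.25 and 12 of 13 below 0. Over all genes tested the median was -0.01 and 48.9% lay above 0. Without control mouse 3, the nuclear median came to 0.02 with 52 of 81 above 0, and the mitochondrially encoded median to 0.02 with 6 of 13 below 0. Without treated mouse 3, they were 0.19 with 77 of 81 above 0 and -0.15 with 11 of 13 below 0. When libraries were scaled by their size alone, the nuclear median was 0.00 with 45 of 82 above 0, while the median of all genes moved to -0.12, so relative to all genes the nuclear median stayed at 0.12.

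**Figure D2:**
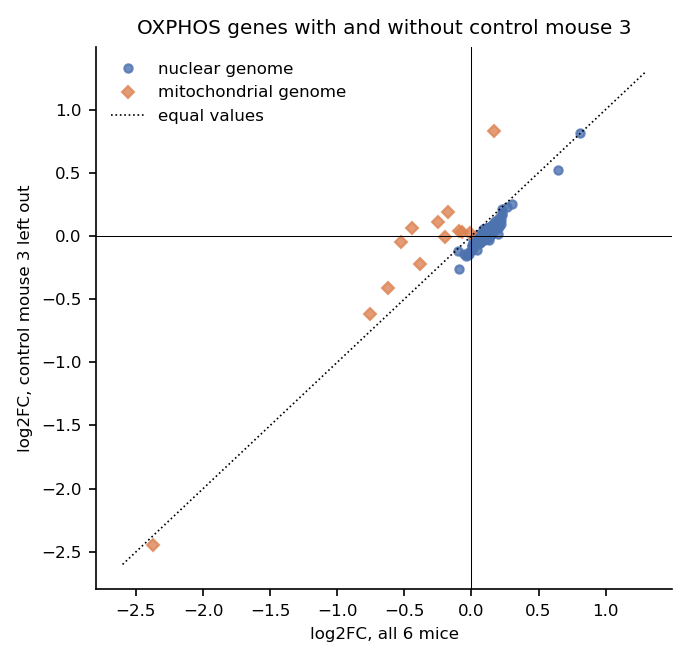
log2FC (GSK503 minus control) of the OXPHOS genes with all 6 mice on the horizontal axis and with control mouse 3 left out on the vertical axis. Most nuclear genes (circles) move down and most mitochondrially encoded genes (diamonds) move up relative to the dotted line of equal values, so that both medians come to 0.02.

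As a share of all deposited values in a library, the nuclear OXPHOS genes made up 1.84%, 1.82% and 1.56% in controls 1, 2 and 3 against 1.79%, 1.75% and 1.61% in treated mice 1, 2 and 3. The groups overlapped, with means of 1.74% ± 0.153 and 1.72% ± 0.0966 (SD, n = 3 mice each). Mitochondrially encoded genes took 3.40%, 3.06% and 3.77% in the controls against 3.08%, 2.91% and 3.07% in the treated mice. These shares also overlapped, with means of 3.41% ± 0.359 and 3.02% ± 0.0990 (SD, n = 3 mice each), a log2 ratio of -0.17 that was -0.10 without control mouse 3. Most of this was *COX1*, the catalytic subunit of complex IV, which made up between 75.9% and 84.1% of the mitochondrially encoded sum. With *COX1* left out, the share was 0.608%, 0.517% and 0.908% in the controls against 0.589%, 0.463% and 0.488% in the treated mice, so control mouse 3 alone lay well above the others. Shares divide by the sum of all values, between 975566 and 982686 in controls and between 1035854 and 1076042 in treated mice. Taken as scaled values and not as a share, the mitochondrially encoded sum had a log2 ratio of -0.06.

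Complex I, with 38 nuclear genes here, had a median log2FC of 0.13, and 35 of the 38 were above 0 (26 of 38 without control mouse 3). *Ndufs7*, which holds the last iron-sulfur cluster before ubiquinone, read 54.2, 54.1 and 50.6 in controls 1, 2 and 3 against 65.1, 63.3 and 62.0 in treated mice 1, 2 and 3. The groups did not overlap, and the replicates of each group were close together. Its log2FC was 0.26 (SE, the standard error, of 0.07 and limma adjusted p = 0.143), and the smallest p an exact two-sided permutation test over 3 against 3 mice can give is 0.1. Without control mouse 3 the log2FC was 0.23, and over the 17 alternatives the limma adjusted p lay between 0.128 and 0.452. *Ndufs7* (ENSMUSG00000020153) lies on the plus strand of GRCm39 at chr10:80084941-80095049.

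*Ndufa11*, an accessory membrane-arm subunit, had the highest log2FC of the nuclear complex I genes. It read 53.1, 48.8 and 45.6 in the controls against 66.3, 63.4 and 53.3 in the treated mice. The groups did not overlap, although treated mouse 3 lay just above control mouse 1. Its log2FC was 0.31 (SE 0.10 and limma adjusted p = 0.225), and 0.25 without control mouse 3. *Ndufa11* (ENSMUSG00000002379) lies on the plus strand at chr17:57024322-57031247 of GRCm39. *Ndufa6*, another accessory subunit, read 176, 164 and 138 in the controls against 195, 178 and 183 in the treated mice, and its log2FC of 0.22 (limma adjusted p = 0.357) was 0.12 without control mouse 3.

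Other core subunits of complex I, which carry electrons from NADH, differed less. *Ndufs1* read 210.1, 195 and 186 in the controls against 205, 207 and 183 in the treated mice. *Ndufs1*, *Ndufs3*, *Ndufs8*, *Ndufv1* and *Ndufv2* had a log2FC between -0.02 and 0.14, and all of them overlapped between the groups. *Ndufa5*, an accessory subunit, had the lowest nuclear log2FC of the complex, -0.02. *Ndufs6*, an accessory subunit of the matrix arm, had a log2FC of 0.18 (limma adjusted p = 0.496). *Ndufa1* and *Ndufb11*, which are on the X chromosome, had log2FCs of 0.15 and 0.20 (limma adjusted p = 0.522 and 0.472). The rows *Ndufb4* and *Ndufb4b*, the latter listed by GENCODE as a lncRNA, held identical values in every library. They are thus 1 measurement, although the gene counts given here include both rows. *Ndufb4c*, which GENCODE lists as a processed pseudogene and which is also counted, had a log2FC of 0.22 (limma adjusted p = 0.462). Reads of these near-identical copies could have been divided in the counting, so their levels are uncertain.

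**Figure D3:**
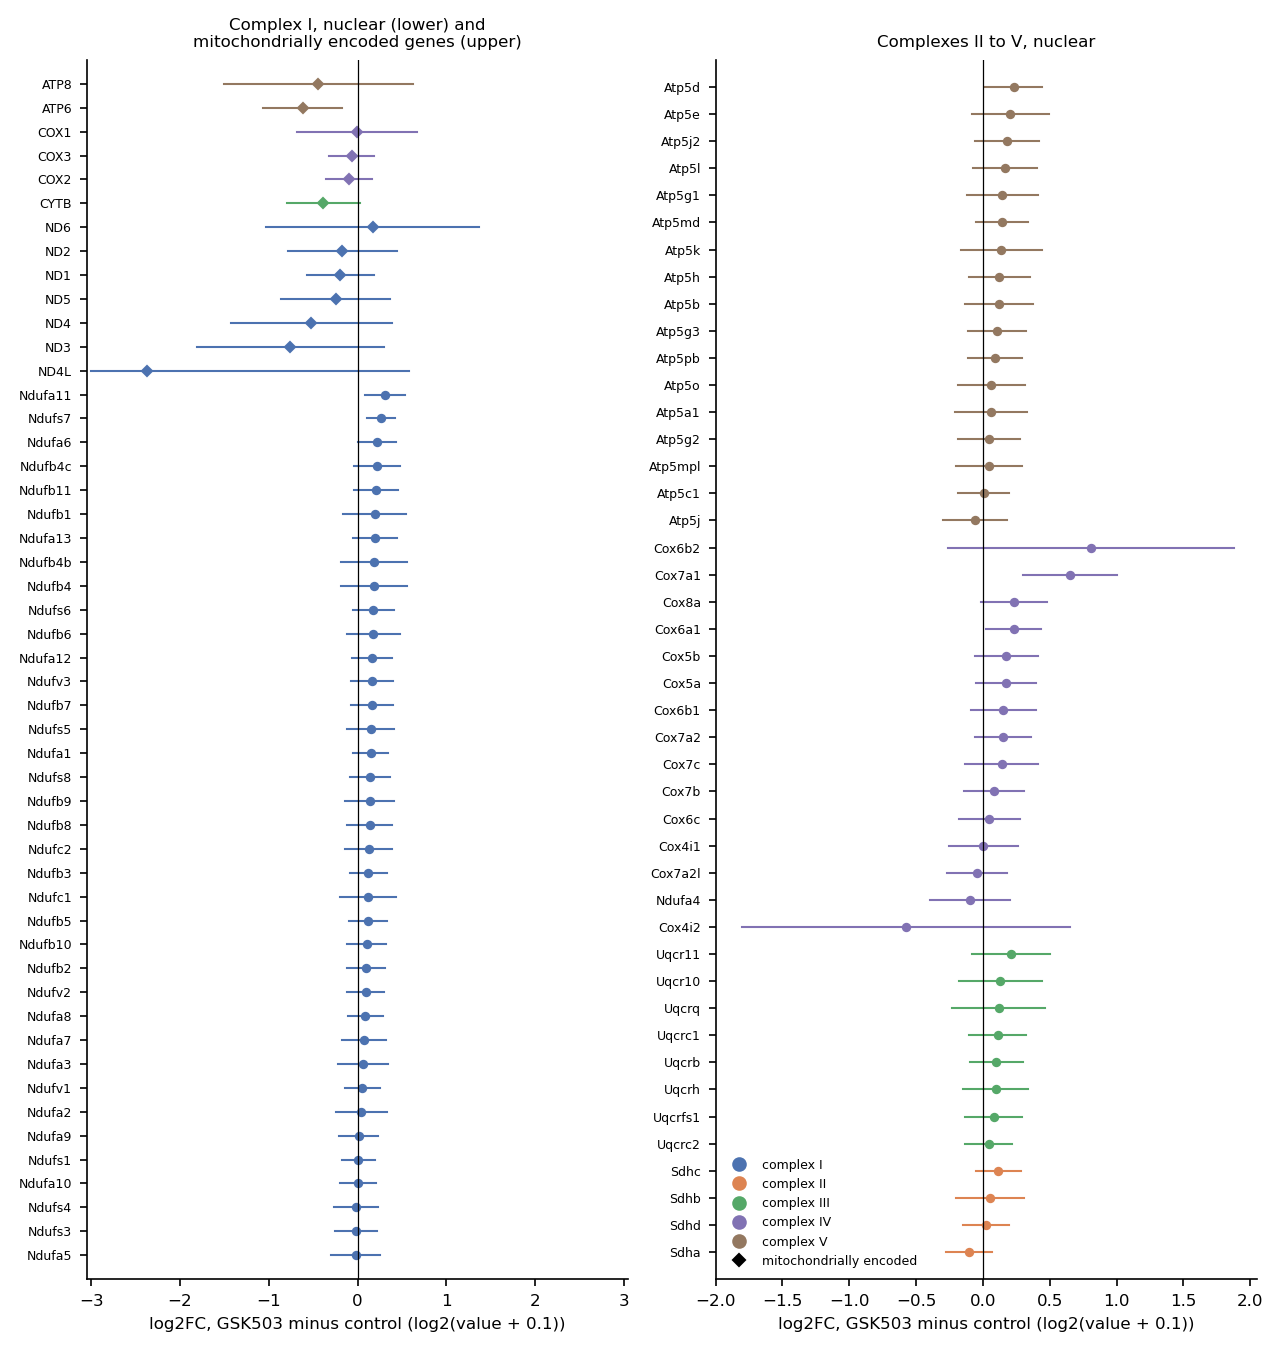
log2FC (GSK503 minus control, on log2(value + 0.1)) of the OXPHOS genes with limma's 95% confidence interval, coloured by complex; diamonds are mitochondrially encoded genes. The lower end of the ND4L interval, -5.32, lies beyond the axis. Most intervals include 0, and those of *Cox7a1*, *Ndufs7*, *Ndufa11*, *Cox6a1*, *Atp5d* and *Ndufa6* lie above it and that of *ATP6* below it.

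Complex II, which also works in the tricarboxylic acid cycle, had 4 genes and a median log2FC of 0.04, which was -0.04 with 1 of 4 above 0 without control mouse 3. *Sdha*, its flavoprotein, read 579.6, 581 and 562 in the controls against 525, 558 and 521 in the treated mice. All treated mice lay below all control mice, the only OXPHOS gene of either genome for which this was so, where 9.22% of all genes did. The difference was small, with a log2FC of -0.10 (SE 0.08 and limma adjusted p = 0.605). It stayed below 0 under all 17 alternatives, between -0.22 and -0.08. Among these, only other scalings, other pseudocounts and left-out mice can move a log2FC. *Sdha* (ENSMUSG00000021577) lies on the minus strand at chr13:74469359-74498436 of GRCm39. The iron-sulfur subunit *Sdhb* and the membrane anchors *Sdhc* and *Sdhd* had log2FCs of 0.05, 0.11 and 0.02, and their groups overlapped.

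Complex III had 8 nuclear genes with a median log2FC of 0.10, all above 0, of which 6 stayed above 0 without control mouse 3. *Uqcrfs1*, the Rieske iron-sulfur protein, had a log2FC of 0.08. The core proteins *Uqcrc1* and *Uqcrc2* had log2FCs of 0.11 and 0.04, *Uqcrc2* being the lowest of the complex. *Uqcr11*, a small accessory subunit, was the highest at 0.21 (limma adjusted p = 0.537). None of the 8 had an unadjusted p under 0.05 in limma, and none separated the groups.

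Complex IV held the nuclear gene with the smallest p, *Cox7a1*. It encodes the heart and skeletal muscle form of subunit VIIa. *Cox7a1* read 27.0, 25.1 and 20.1 in controls 1, 2 and 3 against 46.4, 36.6 and 31.2 in treated mice 1, 2 and 3. The groups did not overlap, with means of 24.1 ± 3.56 and 38.1 ± 7.73 (SD, n = 3 mice each). Its log2FC was 0.65 (SE 0.16 and limma adjusted p = 0.104), a fold of 1.57, and it was 0.52 without control mouse 3. Over the 17 alternatives the log2FC lay between 0.50 and 0.78 and the limma adjusted p between 0.0523 and 0.352. *Cox7a1* (ENSMUSG00000074218) lies on the plus strand at chr7:29883569-29885503 of GRCm39. The 9 smooth muscle markers, which summed to 104.6, 204 and 153 in controls 1, 2 and 3 and to 74.3, 81.98 and 246 in treated mice 1, 2 and 3, were all lower in treated mice by log2FC, with a median of -1.79, and their part in the *Cox7a1* values was not tested.

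The widely expressed form of the same subunit, *Cox7a2*, read 209, 205 and 169.96 in the controls against 225, 217 and 203 in the treated mice. Its log2FC was 0.15 (adjusted p = 0.536 by limma), and the related *Cox7a2l*, a factor in joining complexes III and IV, had -0.04. Per 1000 nt of transcript, the level of *Cox7a2* was 239 and that of *Cox7a1* 54.7 in control mice, so *Cox7a1* was the minor form. Of the other families, *Cox4i1* had a log2FC of 0.00 (0.11 standard error), with control mouse 3 at 480.1 and the other 5 mice between 519 and 617. Its alternative form *Cox4i2* was near the limit of detection, between 0 and 0.141, and had the lowest log2FC of the complex, -0.57 (limma adjusted p = 0.702). *Cox6b1* had a log2FC of 0.15. Its testis-type form *Cox6b2* had values between 0.280 and 1.19 and the highest log2FC of the complex, 0.81 (limma adjusted p = 0.509), with overlapping groups.

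*Cox6a1*, the widely expressed form of subunit VIa, read 333, 348 and 309 in the controls against 418, 396 and 348 in the treated mice. The groups just failed to overlap, and the log2FC was 0.23 (SE 0.09 and limma adjusted p = 0.317), or 0.18 without control mouse 3. *Cox8a*, a small membrane subunit, had the same log2FC of 0.23 (limma adjusted p = 0.414) with overlapping groups. *Cox5a* and *Cox5b* both had 0.17, the X-linked *Cox7b* 0.08 and *Cox6c* 0.05. *Ndufa4*, named as a complex I gene but now placed in complex IV, was lower in treated mice at -0.10 (limma adjusted p = 0.811). The 15 nuclear complex IV genes together had a median log2FC of 0.15, with 12 above 0, and 9 of 14 without control mouse 3.

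**Figure D4:**
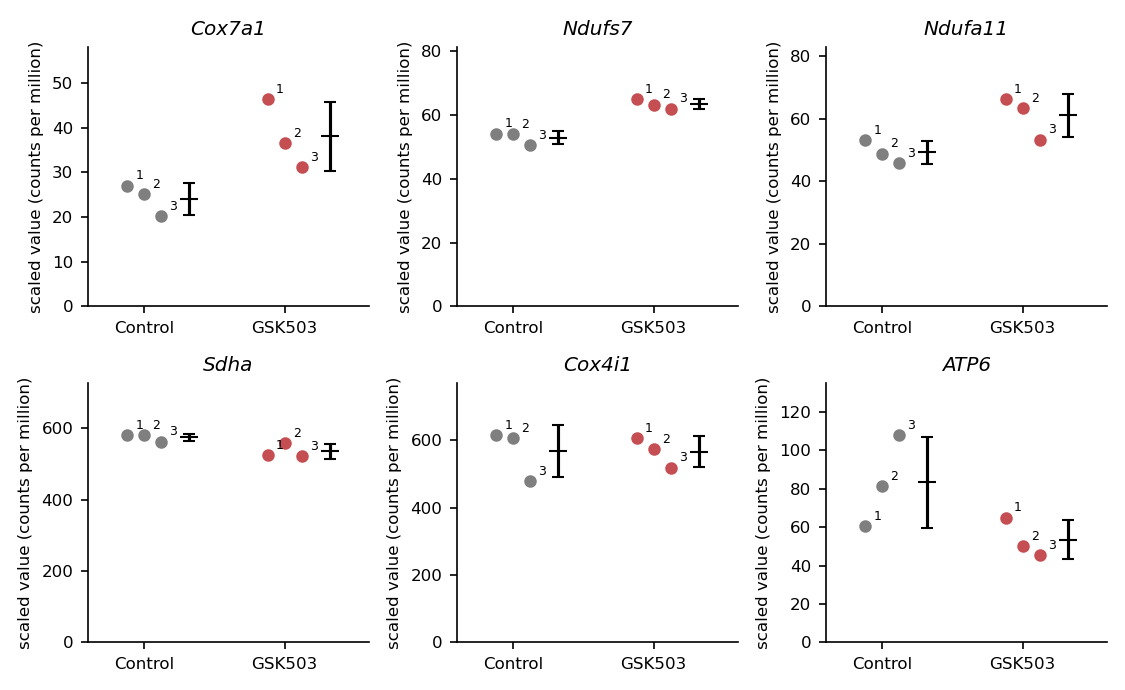
Scaled value of 6 OXPHOS genes in each mouse (numbers are the mice of a group), with the group mean and SD beside the points; axes start at 0. *Cox7a1*, *Ndufs7* and *Ndufa11* have all treated mice above all control mice, *Sdha* the reverse, and *Cox4i1* and *ATP6* overlap.

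Complex V had 17 nuclear genes with a median log2FC of 0.12 and 16 above 0, and 10 of 17 without control mouse 3. Its catalytic subunits were the most abundant nuclear OXPHOS genes per length, at 824 for *Atp5a1* (alpha) and 906 for *Atp5b* (beta) per 1000 nt in control mice. *Atp5b* read 1789.8, 1825 and 1617 in the controls against 1962, 1991 and 1734 in the treated mice, with a log2FC of 0.12, and *Atp5a1* had 0.06. *Atp5d*, the delta subunit of the central stalk, read 351, 344 and 334 in the controls against 446, 414 and 353 in the treated mice. Treated mouse 3 lay just above control mouse 1, and the log2FC was 0.23 (limma adjusted p = 0.339), the highest of the complex. *Atp5j*, a peripheral stalk gene, was the lowest at -0.06. The 3 genes for the c-ring subunit, *Atp5g1*, *Atp5g2* and *Atp5g3*, had log2FCs of 0.15, 0.05 and 0.11. *Atpif1*, whose protein inhibits ATP synthase and whose symbol lies outside the choice of genes, had a log2FC of 0.05 (limma adjusted p = 0.876).

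In all, 6 of the 82 nuclear genes (7.32%) had their lowest treated value above their highest control value, against 9.84% of all genes tested: *Cox7a1*, *Ndufs7*, *Ndufa11*, *Cox6a1*, *Atp5d* and *Ndufa6*. Leaving aside the tissue forms *Cox4i2*, *Cox6b2* and *Cox7a1*, the limma 95% intervals of the other 79 nuclear genes stayed between -0.39 (*Ndufa4*) and 0.56 (*Ndufb4*), or folds of 0.761 to 1.47. The 14 subunits that carry electrons or form the catalytic sites of ATP synthase had a median log2FC of 0.07, and the 63 other common subunits 0.13. Without control mouse 3 these medians were -0.00, with 7 of 14 above 0, and 0.02, with 41 of 63 above 0. Across 81 nuclear genes with a transcript length, longer genes had lower log2FCs (Spearman's rho -0.36, across genes that share the same libraries), and across 16006 other genes rho was -0.16. Other transcripts under 1000 nt had a median log2FC of 0.06, against -0.01 for longer ones, and 41 of the 81 nuclear OXPHOS transcripts were under 1000 nt. The part of transcript length and of the epithelial markers in the nuclear values was not tested.

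The 13 mitochondrially encoded genes are read from 2 long precursor RNAs, and some share bases. Where *ND4L* ends and *ND4* begins on chrM, the shared bases, in capitals, include the start codon of *ND4*, and where *ATP6* meets *COX3* a single base is shared. These junctions are shown because reads across them cannot be given to 1 gene alone.
*ND4L*-*ND4*, plus strand, chrM:10157-10183 of GRCm39: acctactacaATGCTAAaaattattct
*ATP6*-*COX3*, plus strand, chrM:8597-8617 of GRCm39: ataatacataAtgacccacca
*ATP8* and *ATP6* overlapped by 43 nt and *ND4L* and *ND4* by 7 nt on the same strand, and *ND5* and *ND6* by 14 nt on opposite strands. The library kit kept strand, but the strand setting of the counting is not given in the sources used here, so reads of *ND5* and *ND6* in their overlap could not be assigned with certainty.

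Copies of mitochondrial DNA in the nuclear genome bear on how these genes were counted. GRCm39 holds a copy of 4654 nt at chr1:24650616-24655269 that matches chrM:6390-11042 at 99.9% identity. Every stretch of 76 bases, the read length, of *COX2*, *ATP8*, *ATP6*, *COX3* and *ND4L* also occurs exactly in nuclear DNA, as do 98.9% of those of *ND3*, 61.5% of *ND4* and 39.4% of *COX1*. For *ND1*, *ND6* and *CYTB* the share was 0%, and it was 5.61% for *ND2* and 1.54% for *ND5*. Reads from the shared stretches could have been divided between the 2 genomes.

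Among the rows of the table, 2 for such copies were read here, and no search was made for others. *Gm10925*, listed by RefSeq as a pseudogene of chromosome 1 with *mt-Atp6* among its other names, read 1080.1, 962 and 1502 in the controls against 1192, 960.3 and 873 in the treated mice. It averaged 16.0 times the level of *ATP6* itself. *ATP6*, a membrane subunit of ATP synthase, read 60.7, 81.5 and 108 in the controls against 64.9, 50.0 and 45.3 in the treated mice. *ATP6* had the smallest p of the mitochondrially encoded genes, with a log2FC of -0.62 (SE 0.20 and limma adjusted p = 0.211), and -0.41 without control mouse 3. The sum of *ATP6* and *Gm10925* overlapped between the groups, with a log2FC of -0.24 (exact two-sided permutation test, p = 0.4).

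*ND4L*, a small membrane subunit of complex I, read 1.12, 11.2 and 3.12 in the controls against 6.40, 0.388 and 0 in the treated mice, the widest scatter among the OXPHOS genes. Its log2FC of -2.37 had a standard error of 1.31 (limma adjusted p = 0.483). *Gm10222*, a pseudogene at chr1:24651488-24651781 of GRCm39 that corresponds to chrM:9878-10171 within *ND4L*, read 18.6, 2.74 and 22.8 in the controls against 9.69, 12.9 and 12.98 in the treated mice. Control mouse 2 was thus highest for *ND4L* and lowest for the copy. Their sum was 19.7, 14.0 and 25.9 in the controls against 16.1, 13.3 and 12.98 in the treated mice, a log2FC of -0.45 (exact two-sided permutation test, p = 0.2). The 0 of *ND4L* in treated mouse 3 stood beside 12.98 in its copy, so no absence can be read from it.

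**Figure D5:**
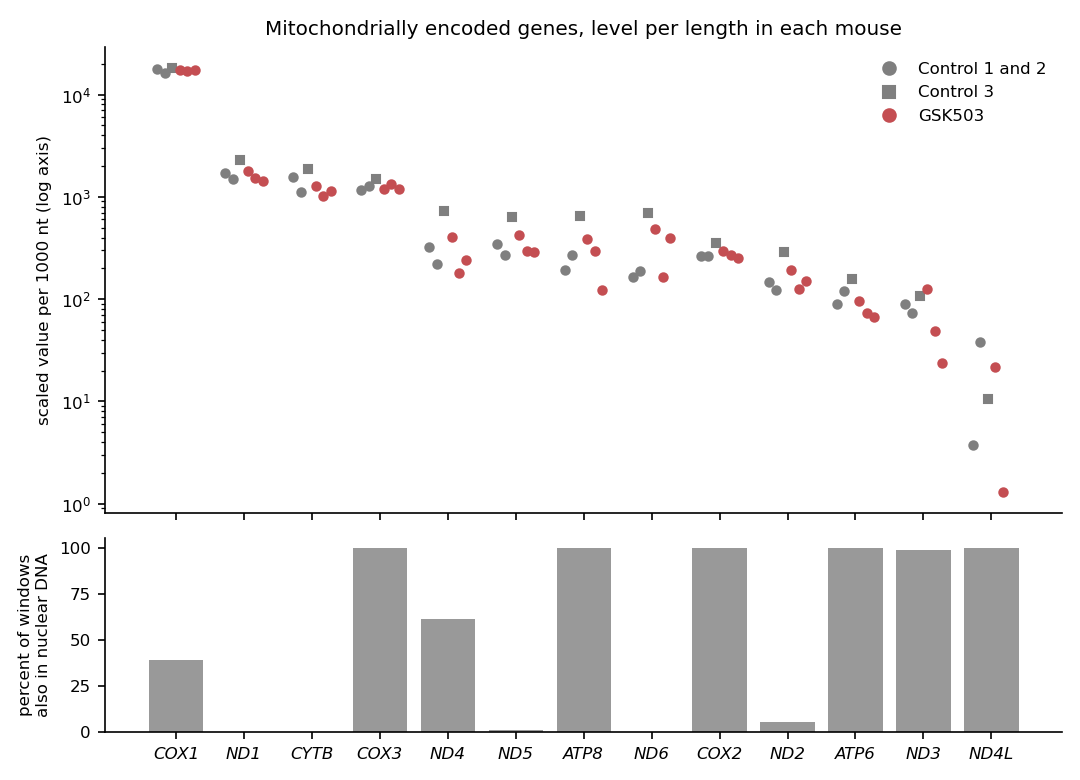
Upper panel, scaled value per 1000 nt of each mitochondrially encoded gene in each mouse on a log axis, in order of the control mean; a value of 0 for ND4L in treated mouse 3 is not drawn. Lower panel, percent of the gene's 76-base stretches that also occur exactly in nuclear DNA. *COX1* lies far above the rest, and control mouse 3 (squares) is the highest point for most genes.

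Per 1000 nt, the level of *COX1* was 17314 in control mice, *ND1* 1831, *CYTB* 1520.1 and *COX3* 1302. *ND4*, *ND5*, *ATP8*, *ND6* and *COX2* followed at 422, 419.8, 374, 350.3 and 295, then *ND2* at 185, *ATP6* at 122, *ND3* at 90.4 and *ND4L* at 17.3. Differences in level among the neighbours from *ND4* to *COX2* were not tested, and the order among genes with nuclear copies is uncertain.

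Control mouse 3 lay a median of 1.06 above the other control mice on the log2 scale over the 5 genes with under 10% of stretches shared, and 0.41 above over the other 8. *ND1*, a core membrane subunit of complex I, read 1625, 1417 and 2214 in the controls against 1706, 1471 and 1358 in the treated mice. Its log2FC was -0.19 (limma adjusted p = 0.668) and -0.01 without control mouse 3. *ND5*, a proton-pumping subunit, read 635, 494 and 1168 in the controls against 768, 537 and 532 in the treated mice, a log2FC of -0.25 that was 0.11 without that mouse. *ND2* went from -0.17 to 0.19 in the same way. *ND6*, the only one of the 13 on the other strand and the only one above 0, read 85.3, 98.5 and 362 in the controls against 249, 84.5 and 206 in the treated mice. Its log2FC was 0.17 (SE 0.54 and limma adjusted p = 0.930), or 0.83 without control mouse 3.

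*CYTB*, the mitochondrially encoded core of complex III, read 1803, 1278 and 2136 in the controls against 1476, 1154 and 1297 in the treated mice. The groups overlapped, with a log2FC of -0.39 (SE 0.18 and limma adjusted p = 0.409), and -0.22 without control mouse 3. *CYTB* kept a negative log2FC under all 17 alternatives, between -0.59 and -0.22. So did *ATP6*, *ND3*, *ND4L*, *ND4* (up to -0.04) and *ND1* (up to -0.01). *COX1* read 27434, 24848 and 27967 in the controls against 26599, 26296 and 26793 in the treated mice, a log2FC of -0.01. *COX2* and *COX3*, the other core subunits of complex IV, had log2FCs of -0.10 and -0.07 and 0.04 and 0.03 without control mouse 3. The complex I genes *ND4* and *ND3* had -0.52 and -0.76, and -0.04 and -0.62 without that mouse. *ATP8*, which shares bases with *ATP6*, had -0.44, and 0.06 without control mouse 3. The adjusted p of *COX1*, *COX2*, *COX3*, *ND3*, *ND4* and *ATP8* in limma lay between 0.530 and 0.994, and no mitochondrially encoded gene separated the groups.

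The promoters of nuclear OXPHOS genes are known for sites of NRF1 and of ETS factors such as GABPA, which tie respiratory subunits to shared control. RefSeq promoters (GRCm38.p6, 250 bases before to 50 after the start) were matched for 68 of the 82 nuclear genes. On either strand, the NRF1 core (GCGC, any base, then TGCGC) stood in 17 of the 68 (25.0%) and in 5.19% of 27025 genes. The ETS core CCGGAAG stood in 17 of the 68 (25.0%) and in 9.93% of the same 27025 genes. Those 27025 were not limited to the genes tested here, and base composition was not matched. The strings could share at most an end base, 4 promoters held both, and a match is a description of the sequence and not a site of binding. The windows below belong to genes of complexes I, II and IV with differing log2FCs. They are written along each gene's strand, with the NRF1 core in capitals. In *Sdhd* and *Sdha* the match is on the opposite strand, so the capitals show the core's reverse complement.
*Ndufa11*, plus strand, chr17:56717692-56717721 of GRCm38.p6: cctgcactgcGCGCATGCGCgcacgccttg
*Cox6a1*, minus strand, chr5:115349101-115349130 of GRCm38.p6: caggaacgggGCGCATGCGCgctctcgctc
*Ndufs6*, minus strand, chr13:73328479-73328508 of GRCm38.p6: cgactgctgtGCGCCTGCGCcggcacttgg
*Sdhd*, minus strand, chr9:50603909-50603938 of GRCm38.p6: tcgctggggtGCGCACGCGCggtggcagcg
*Sdha*, minus strand, chr13:74350276-74350305 of GRCm38.p6: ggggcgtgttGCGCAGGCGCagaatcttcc
*Sdha*, minus strand, chr13:74350319-74350348 of GRCm38.p6: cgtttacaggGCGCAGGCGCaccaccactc
Of the 6 nuclear genes whose groups did not overlap and were higher in treated mice, *Ndufa11*, *Cox6a1* and *Ndufa6* held the NRF1 core and *Cox7a1*, *Ndufs7* and *Atp5d* had no match in this window. *Sdha* held it at 3 positions within the window.

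Genes around OXPHOS that lie outside the choice by symbol were read from 11 lists of 147 genes, of which 145 were tested. Among them, *Ndufab1* is a complex I subunit that the choice by symbol left out, with a log2FC of -0.07 (limma adjusted p = 0.781). None passed an adjusted p of 0.05 or 0.1 in limma, and 10 (6.90%) had an unadjusted p under 0.05, against 13.3% of all genes. Of the 145, 86 were higher and 59 lower in treated mice, with a median log2FC of 0.03. The smallest adjusted p was that of *Coq2*, an enzyme of ubiquinone synthesis, which read 30.3, 33.3 and 28.4 in the controls against 35.8, 37.5 and 41.5 in the treated mice (log2FC 0.32, limma adjusted p = 0.180). In the same list of 19 electron carriers and dehydrogenases, *Etfa*, which brings electrons from fatty acid oxidation, had a log2FC of -0.22 (adjusted p = 0.314 by limma), and the list's median was 0.01, or -0.00 without control mouse 3.

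Among tricarboxylic acid cycle genes, 13 of 14 were higher, with a median log2FC of 0.08, and 10 of 14 without control mouse 3, with a median of 0.06. *Idh3a*, a subunit of isocitrate dehydrogenase, read 173, 165 and 169 in the controls against 188, 193 and 190.4 in the treated mice, with no overlap (log2FC 0.17, limma adjusted p = 0.296). *Suclg1*, of succinate-CoA ligase, had 0.15 (limma adjusted p = 0.481). Of 8 carriers of ATP and phosphate, 7 were higher (median 0.10), and 6 of 7 tested without control mouse 3 (median 0.05). *Slc25a4*, the ADP/ATP carrier of heart and muscle, had a log2FC of 0.32 (adjusted p = 0.372 by limma), and the outer membrane channel *Vdac1* had 0.11.

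Of 19 genes for transcription and upkeep of mitochondrial DNA, 4 were higher and 15 lower, with a median log2FC of -0.10, which was -0.10 without control mouse 3 as well. *Mterf2*, a member of the termination factor family, read 5.38, 5.42 and 5.70 in the controls against 4.07, 4.02 and 4.25 in the treated mice, which did not overlap (log2FC -0.41, limma adjusted p = 0.309). *Mterf1a* of the same family had -0.35 (limma adjusted p = 0.485). Mitochondrial RNA processing genes had 10 of 17 higher and a median of 0.05 (0.03 without control mouse 3), with *Fastkd1* at -0.22 and *Fastk* at 0.14. Regulators of mitochondrial biogenesis had 6 of 17 higher and a median of -0.03, with the nuclear receptor *Ppara* at -0.30 and the transcription factor *Yy1* at -0.19 (limma adjusted p = 0.342 and 0.346). Without control mouse 3, 10 of these 17 regulators were higher and the median was 0.02.

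Assembly factors, which build the complexes without staying in them, were near 0 as lists. The medians were 0.06 for 16 complex I factors, -0.03 for 4 of complex II, 0.02 for 6 of complex III, 0.07 for 21 of complex IV and 0.01 for 4 of complex V. Without control mouse 3 they were 0.02, -0.09, 0.01, 0.01 and 0.02 in the same order. The genes with the smallest p were *Ndufaf8* (log2FC 0.30) and *Ndufaf3* (0.21) for complex I and *Sdhaf1* (0.21) and *Sdhaf3* (-0.20) for complex II. For complex III they were *Uqcc2* (0.31, limma adjusted p = 0.241) and *Uqcc3* (0.14), and for complex IV *Pet100* (0.28, limma adjusted p = 0.246) and *Coa5* (-0.14). *Tmem242* (0.13) and *Tmem70* (0.01) were those of complex V.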

How the data were processed

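RNA was from colonic crypts, with 1 library per mouse and 76-base paired-end reads from a stranded total RNA kit. The authors mapped reads with STAR (GRCm39), took RSEM's estimate for each gene and applied TMM scaling from edgeR, so the deposited signal is an estimated count relative to the TMM-scaled library size (CPM). Such values are not raw counts, so limma 3.58.1 (lmFit, eBayes with an intensity trend; R 4.3.3) was run on log2(value + 0.1) for genes of at least 0.1 in at least 3 libraries, which understates changes of low genes. Between 80.4% and 82.8% of values under 1000 counts were whole multiples, within 0.01, of a library's step, which gave the totals. Nothing says how littermates or cages were spread over groups, and the floor of 3 counts covers counting error only. Intervals from limma combine a gene's own spread between mice with a trend over genes of similar level. An interval can thus be wider than the gene's own spread would give, as for *COX1* (SE 0.30). The mice and groups came from the sample labels. Of the symbols, 95.5% matched GENCODE vM39 of GRCm39. Transcript lengths are those of each gene's Ensembl canonical transcript there, which need not be the form expressed in crypts.

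The OXPHOS genes and all lists were chosen with earlier results of these data known. Genes named are the mitochondrially encoded ones, those under an adjusted p of 0.1, the 10 nuclear ones with the smallest p, isoform families, X-linked genes, core subunits, *Atpif1*, the extremes of each complex and, for each list, the 2 smallest p. Epithelial, goblet cell, smooth muscle, macrophage, fibroblast and B cell markers are given as sums, and the other marker lists as counts of genes. *Pet117* and *Slc25a31* were not tested. Nuclear copies were found with blastn and exact 76-base matches. A simulated table of this comparison (16639 genes) held changes only in genes with a mean value of at least 10. Of 50 genes per fold, 33 changed 1.5-fold and 46 changed 2-fold were called, as were 47 changed 3-fold and 50 changed 4-fold. There were 12 calls among unchanged genes. Noise was drawn for each gene on its own, so no simulated mouse shifted a whole set of genes. Alternatives were other scalings, filters, pseudocounts, variance models, a replicate block, each mouse left out, and X and Y genes left out. Only the scalings, pseudocounts and left-out mice can move a gene's log2FC, and the others change its p or which genes are tested. The sum of mitochondrially encoded values on the authors' scale was added after seeing the data. Organoid and single-cell data were not analysed here. An allele of the mouse model and the values of a core subunit that the rule would name are not reported here.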

Additional observations from a re-analysis of the deposited data

How the results depend on the processing

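No OXPHOS gene passed an adjusted p of 0.05 in limma under any of the 17 alternatives, and none of the surrounding pathway genes did. At an adjusted p of 0.1, against 0 genes in the fit reported, 2 (*ATP6* and *Cox7a1*) passed with libraries scaled by size alone and 2 with the size of nuclear genes only, 1 (*Cox7a1*) with median-of-ratios size factors, 1 with robust empirical Bayes and 1 with a replicate block, and between 0 and 3 with 1 mouse left out. The 3 were *Cox7a1*, *Ndufa11* and *Atp5d* without treated mouse 3. The replicate numbers do not pair the mice: deviations of same-numbered mice correlated at 0.03, -0.13 and -0.12, and no mouse correlated best with its own number. With the replicate block, 33 genes of the whole table passed 0.05, against 107, and no other OXPHOS call changed. Leaving out 1 mouse moved the nuclear median between 0.02 and 0.19 and the mitochondrially encoded median between -0.52 and 0.02, in both cases to 0.02 without control mouse 3. The log2 ratio of the mitochondrially encoded share, -0.17, lay between -0.25 and -0.10 with 1 mouse left out, and was -0.0555 for the summed values under median-of-ratios size factors and -0.0607 for the sum on the authors' scale; a share is the same by construction under library size alone. A share divides by a library's sum of all values, which was higher in treated mice. The causes of these differences were not tested. Of single-gene log2FCs, 28 changed sign without control mouse 3, 29 under library size alone and 35 under the size of nuclear genes only. Values fell below the worth of 3 counts in some mice for *Cox4i2* and *ND4L*; depth limits these and, less, *Cox6b2*.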
